A study of Mus musculus with 36 samples.

Results

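Mbp, Mog, Mag, Mobp, Cnp, Cldn11, Mal, Opalin and Ermn are 9 genes of myelin and mature oligodendrocytes, and their RNA was followed in the brains of 36 mice. They were chosen by name, as rows of a table of raw counts per gene, and are 9 of the 56980 gene rows and of the 25601 genes that passed a filter on low counts. All 9 passed that filter, and none was at 0 in any group. The mice, 37 to 45 days old, lacked Ndufs4 (KO) or were wild type (WT), and received CP2 or vehicle by gavage for 3 days. The protein made from Ndufs4 is part of complex I of the respiratory chain, CP2 inhibits that complex, and mice without Ndufs4 are used as a model of Leigh syndrome, a mitochondrial disease of the brain. The tissue label is brain throughout, the text on the design speaks of hippocampus and cortex, and neither says how much of each went into a library. Each title holds the letter F or M. Genotype, treatment and letter gave 8 groups: 6 groups of 5 mice, and the groups KO vehicle M and WT vehicle M with 3 mice each. Neither a strain, the cells in which Ndufs4 was deleted, nor the dose of CP2 is given in the labels used here.

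Oligodendrocytes wrap axons of the central nervous system in myelin, a compacted membrane that insulates the axon and speeds conduction. The cells arise from precursors, pass through a newly formed stage, and switch on the myelin genes under transcription factors such as Olig2, Sox10 and Myrf. In mice of this age the forebrain is still adding myelin. Among the 9 genes, Mbp encodes myelin basic protein, which holds the cytoplasmic faces of compact myelin together, and Mobp a second small basic protein of compact myelin. Mal encodes a proteolipid of the myelin membrane, and Cldn11 the claudin that forms the tight junctions of the sheath. Mag and Mog encode adhesion and surface proteins, at the face next to the axon and on the outside of the sheath. Cnp encodes an enzyme of the non-compacted cytoplasmic channels, Ermn the cytoskeletal protein ermin, and Opalin a transmembrane protein of mature oligodendrocytes.

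Promoters of Mobp, Cnp and Opalin are shown because these 3 genes, with Mbp, passed the test after CP2 in KO mice. That of Cldn11 is shown as an example with none of the motifs searched, which also held for Mal and Ermn. The sequences are from RefSeq (GRCm38.p6), 300 bases each, of which 250 lie before the start site. Promoters of 8 of the 9 genes are covered, and that of Mbp is not reported here. Read in the direction of the gene, they lie at chr9:120149492-120149791 for Mobp, chr11:100574689-100574988 for Cnp and chr3:31149670-31149969 for Cldn11, all on the plus strand, and at chr19:41077064-41077363 for Opalin, on the minus strand. Capitals mark every match to ACAAAG or AACAAT (letters bound by SOX factors), CTGGCAC or CTGGTAC (MYRF), or CAGCTG (an E-box), on either strand.
Mobp: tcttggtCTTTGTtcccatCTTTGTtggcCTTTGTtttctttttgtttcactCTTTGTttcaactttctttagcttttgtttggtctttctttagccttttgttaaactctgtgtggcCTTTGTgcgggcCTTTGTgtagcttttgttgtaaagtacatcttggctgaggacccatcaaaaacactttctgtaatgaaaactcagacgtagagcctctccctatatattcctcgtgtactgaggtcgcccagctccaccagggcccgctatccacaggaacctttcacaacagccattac
Cnp: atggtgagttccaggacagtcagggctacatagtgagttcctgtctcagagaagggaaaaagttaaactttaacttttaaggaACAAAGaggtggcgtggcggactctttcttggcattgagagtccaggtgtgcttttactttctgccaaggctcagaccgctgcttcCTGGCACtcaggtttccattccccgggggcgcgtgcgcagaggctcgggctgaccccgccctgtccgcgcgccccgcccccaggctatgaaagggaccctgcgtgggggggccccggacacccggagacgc
Opalin: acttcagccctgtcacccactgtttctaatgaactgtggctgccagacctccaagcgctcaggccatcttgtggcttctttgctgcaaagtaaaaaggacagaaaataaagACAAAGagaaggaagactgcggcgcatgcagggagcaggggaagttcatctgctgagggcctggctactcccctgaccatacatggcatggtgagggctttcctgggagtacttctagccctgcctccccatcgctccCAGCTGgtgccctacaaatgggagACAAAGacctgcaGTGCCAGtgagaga
Cldn11: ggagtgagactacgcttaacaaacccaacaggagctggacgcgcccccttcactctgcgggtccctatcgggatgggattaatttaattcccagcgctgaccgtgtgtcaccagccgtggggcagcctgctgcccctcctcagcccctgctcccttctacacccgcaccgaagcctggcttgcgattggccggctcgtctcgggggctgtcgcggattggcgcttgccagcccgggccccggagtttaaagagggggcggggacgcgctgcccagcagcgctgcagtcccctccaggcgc

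The Mobp promoter held 6 copies of ACAAAG, all read on the strand opposite to the gene and beginning at -243 to -120 from the start site, and that of Opalin held 2 copies. Cnp and Opalin each held 1 copy of CTGGCAC, and Opalin 1 copy of CAGCTG. The letters ACAAAG were in 4 of the 8 genes' promoters (Cnp, Mag, Mobp, Opalin) and in 18.7% of all 32851 promoters of the table. CTGGCAC was in 3 of the 8 (Cnp, Mag, Opalin) and in 5.01% of all promoters. CTGGTAC was in that of Mog and in 2.24% of all, CAGCTG in that of Opalin and in 16.3% of all, and AACAAT in none of the 8 and in 10.7% of all. Mag had 3 promoters in the table, and a match in any counted. No matches overlapped each other in the promoters printed, and a match describes letters only, not a bound site.

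Each library held 4.61e+07 to 8.86e+07 gene counts, so that even the least abundant of the 9 genes, Opalin, had at least 1378 counts in every sample. Levels are given as CPM (counts-per-million), scaled to library sizes with the TMM method. Ndufs4, the targeted gene, had 27.4 to 39.1 CPM in KO samples and 38.9 to 62.8 CPM in WT samples, and KO and WT did not overlap within any treatment and letter. Xist, expressed from the inactive X of female cells, was at 439 CPM or more in F samples and at 0.833 CPM or less in M samples, except for the library labelled L291 in KO CP2 M, which had 47.3 CPM. L291 was also the lowest of its group for all 9 myelin genes, so their results that include KO CP2 M are given with and without it where a call changes. The same was done for counts of a list of 30 other oligodendrocyte genes, after CP2 in KO and between KO and WT under CP2. Other results of marker lists are given only with L291. The share of reads outside annotated genes ranged from 5.09% to 13.2% per sample. Markers of neurons were abundant in all samples (Camk2a 2533 and Snap25 1708 CPM on average), and Schwann cell myelin markers, which would mark peripheral nerve, summed to between 1.52 and 5.89 CPM per sample.

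Mbp was the most abundant of the 9 genes, at 4450 CPM on average over the 36 samples, and Opalin the least, at 44.1 CPM. Per kilobase of exon sequence (GENCODE M21) the mean level was 525 CPM for Mbp, 237 for Mobp, 186 for Cldn11, 176 for Mal and 170 for Cnp. It was 78.5 CPM per kilobase for Mog, 61.0 for Mag, 25.3 for Ermn and 14.96 for Opalin. Genes of compact myelin and its junctions, and Cnp of the non-compacted channels, thus stood above the surface proteins, and Ermn and Opalin were lowest. Between the lowest and the highest sample, CPM differed 1.95-fold for Mbp and 2.83-fold for Ermn, with the other 7 genes in between. Of the 9 genes, 5 (Mbp, Mog, Mag, Cnp and Cldn11) had their highest sample in L299, a KO CP2 M mouse.

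**Figure D1:**
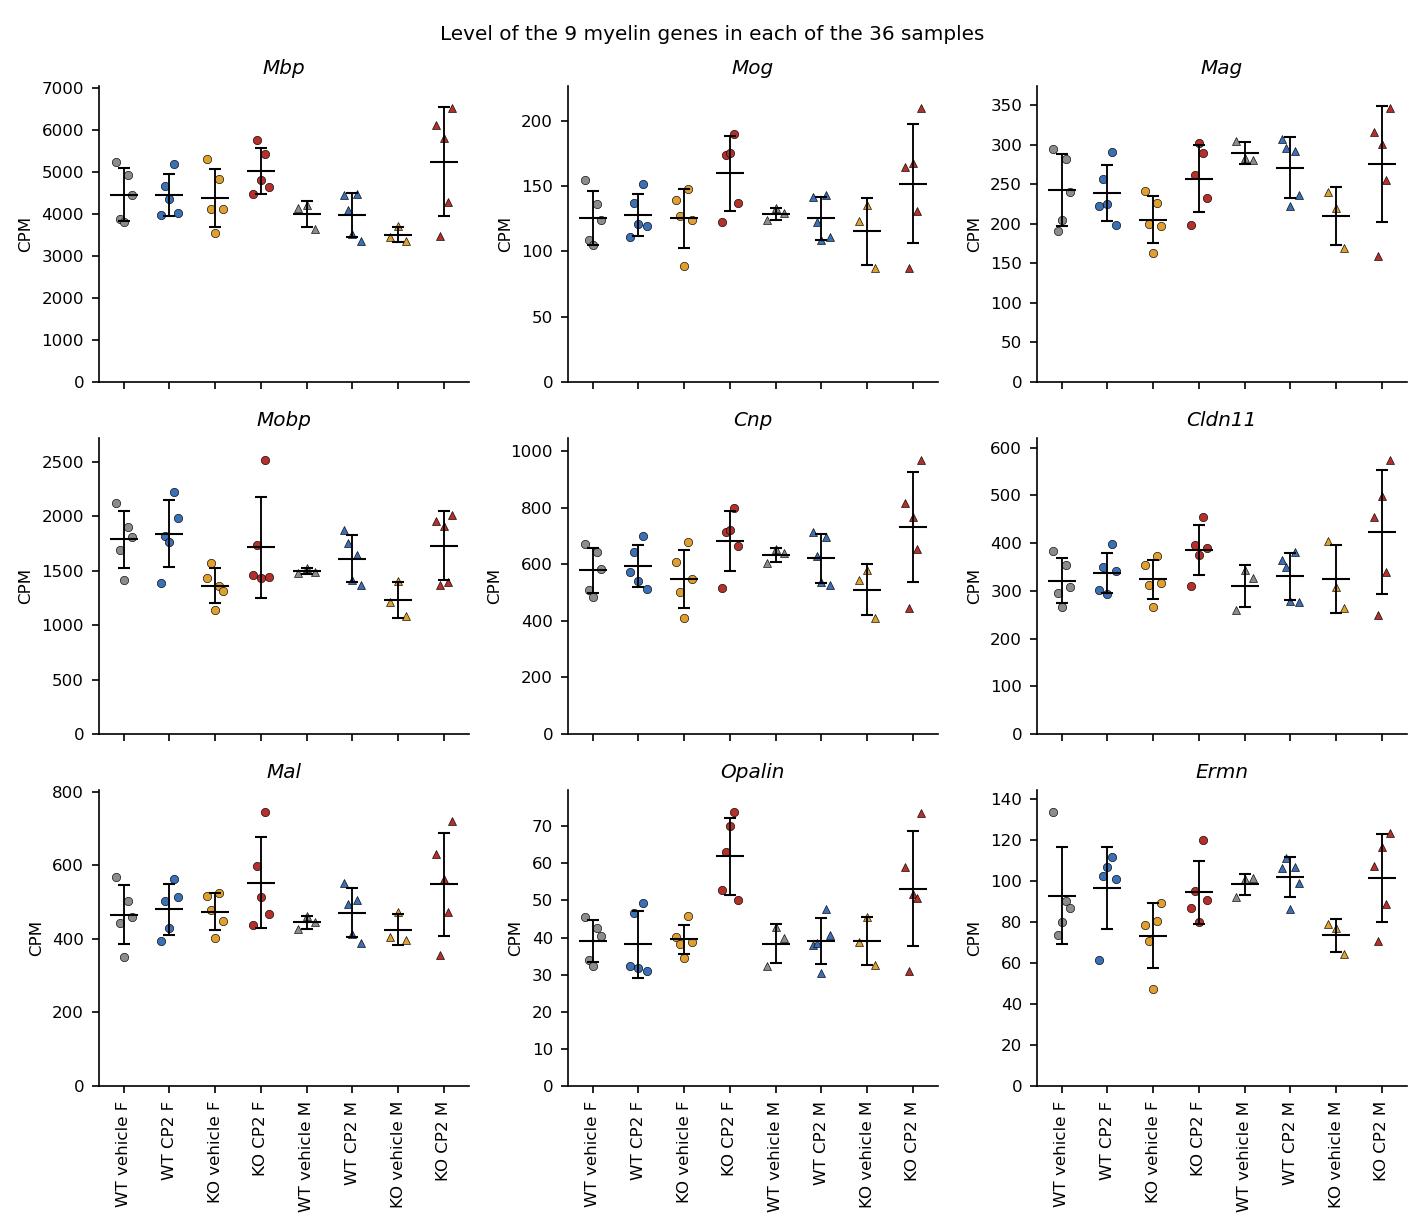
CPM of each of the 9 genes (vertical axes, from 0) in each sample of the 8 groups, with circles for F, triangles for M, and a bar for the mean with its SD (n = 5, or 3 for KO vehicle M and WT vehicle M). Opalin in KO CP2 F (50.1 to 73.9 CPM) lies above all samples of the other F groups, while most other groups overlap.

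The question of what CP2 did in KO mice was addressed with 10 CP2 and 8 vehicle samples. Of the 9 myelin genes, 4 rose after CP2: averaged over F and M, Mbp, Mobp, Cnp and Opalin passed the test, and all 9 log2 fold changes were positive, from 0.29 to 0.55 with a median of 0.39 (edgeR's quasi-likelihood test, adjusted p under 0.05). These are 4 of 9 genes, where 2.08% of all genes tested were called higher in that comparison and the median log2 fold change of all genes was 9.89e-05. DESeq2 called 6 of the 9 and limma-voom 0, and of all 25601 genes they called 1555 and 1015, in either direction. In bulk tissue, more oligodendrocytes and more RNA per oligodendrocyte cannot be told apart.

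Averaged over F and M, Opalin had the largest change of the 9 genes, while in M alone Mbp (0.58), Cnp (0.52), Mobp (0.49) and Ermn (0.47) had larger values than Opalin. In KO CP2 F the samples had 52.8, 63.0, 70.0, 73.9 and 50.1 CPM, and in KO vehicle F 40.1, 38.3, 34.6, 45.7 and 38.8 CPM. The lowest CP2 sample was above the highest vehicle sample, which held for no other of the 9 genes. In that comparison 1.04% of all genes were free of overlap, in either direction. In KO CP2 M, Opalin had 59.0, 31.0, 51.7, 50.6 and 73.6 CPM and in KO vehicle M 38.8, 45.5 and 32.6 CPM. Here 4 of the 5 CP2 samples were above all vehicle samples, and L291 was below them. The log2 fold change was 0.55 (SE 0.131, adjusted p = 0.0158 by edgeR), 0.65 in F (SE 0.17, adjusted p = 0.116) and 0.45 in M (SE 0.199, adjusted p = 0.205).

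Mbp, the most abundant transcript of the sheath, was higher by 0.39 (SE 0.10, adjusted p = 0.0227 by edgeR) on the log2 scale. The samples of KO CP2 M had 6109, 3478, 5797, 4287 and 6524 CPM and those of KO vehicle M 3443, 3705 and 3364 CPM. All CP2 samples but L291 exceeded every vehicle sample, and none of the 9 genes was free of overlap in M, where 15.3% of all genes were. In KO CP2 F the values were 4478, 5755, 4809, 5432 and 4646 CPM, and in KO vehicle F 5301, 4127, 3541, 4836 and 4126 CPM, with overlap. Mbp alone was called in M, with a log2 fold change of 0.58 (SE 0.153, adjusted p = 0.0217), where 2.36% of all genes were called higher. In F it was 0.20 (SE 0.13, adjusted p = 0.634). The call in M was lost without L266, L292, L299, L310, L319 or L322 in turn, with log2 fold changes of 0.49 to 0.62, and without L291 Mbp and Cnp were called.

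Mobp rose by 0.41 (SE 0.113, adjusted p = 0.0335 by edgeR). KO CP2 F had 1458, 1734, 1433, 2517 and 1438 CPM against 1434, 1574, 1137, 1355 and 1317 CPM in KO vehicle F. KO CP2 M had 1961, 1370, 1908, 1399 and 2014 CPM against 1212, 1408 and 1080 CPM in KO vehicle M. In F, 2 of the 5 CP2 samples were above the highest vehicle sample, L233 by far, and in M all but L291 and L298 were. Cnp rose by 0.42 (SE 0.120, adjusted p = 0.0457): KO CP2 F had 514, 715, 720, 800 and 666 CPM against 609, 503, 408, 678 and 549 CPM in vehicle, and KO CP2 M 816, 447, 768, 655 and 968 CPM against 543, 579 and 410 CPM. In each letter 3 or 4 of the 5 CP2 samples were above the highest vehicle sample.

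The other 5 genes had positive values that did not pass the test. The surface proteins Mog and Mag had log2 fold changes of 0.37 (adjusted p = 0.11) and 0.36 (adjusted p = 0.102), Ermn 0.41 (adjusted p = 0.07), Cldn11 0.31 (adjusted p = 0.163) and Mal 0.29 (adjusted p = 0.165), all by edgeR. In F alone 0 of the 9 genes were called by edgeR (0.0859% of all genes were, in either direction), with a median of 0.32. At an unadjusted p under 0.05, 3 of 9 passed in F, as did 2827 of all 25601 genes. DESeq2 called 1 of 9 there and limma-voom 0, and of all genes they called 203 and 2. In M the median was 0.45. The difference between the responses of F and M was called for 0 of 9 genes by edgeR, DESeq2 and limma-voom, with 0 at an unadjusted p under 0.05, where 0.691% of all genes were called.

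These 4 calls depended on single mice. Without L291, 8 of 9 genes were called higher, all except Mal (0.35, adjusted p = 0.0545). Without KO vehicle M replicate L322, the lowest of its group for all 9 genes, 0 were called, although Opalin was still 0.49 (adjusted p = 0.0851). Without L281, L266 or L310 in turn 1 gene was called, and without L216, L233, L292 or L299 in turn 2 were. Opalin kept its call in 17 of 18 such fits, Mbp in 14, Mobp in 10 and Cnp in 5. Over these 18 fits, 190 to 1534 of all genes were called. The share of reads outside annotated genes also moved with the groups: it was 7.33% ± 1.404 (SD, n = 5) in KO CP2 M and 12.1% ± 0.885 (SD, n = 3) in KO vehicle M, without overlap. In F it was 7.54% ± 2.13 (SD, n = 5) and 9.24% ± 2.56 (SD, n = 5). With this percentage as a covariate 0 of 9 genes and 0 of 25601 were called by edgeR, all 9 fold changes stayed positive (0.14 to 0.40), and 1931 of all genes passed an unadjusted p under 0.05. Its part in the result was not tested further.

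**Figure D2:**
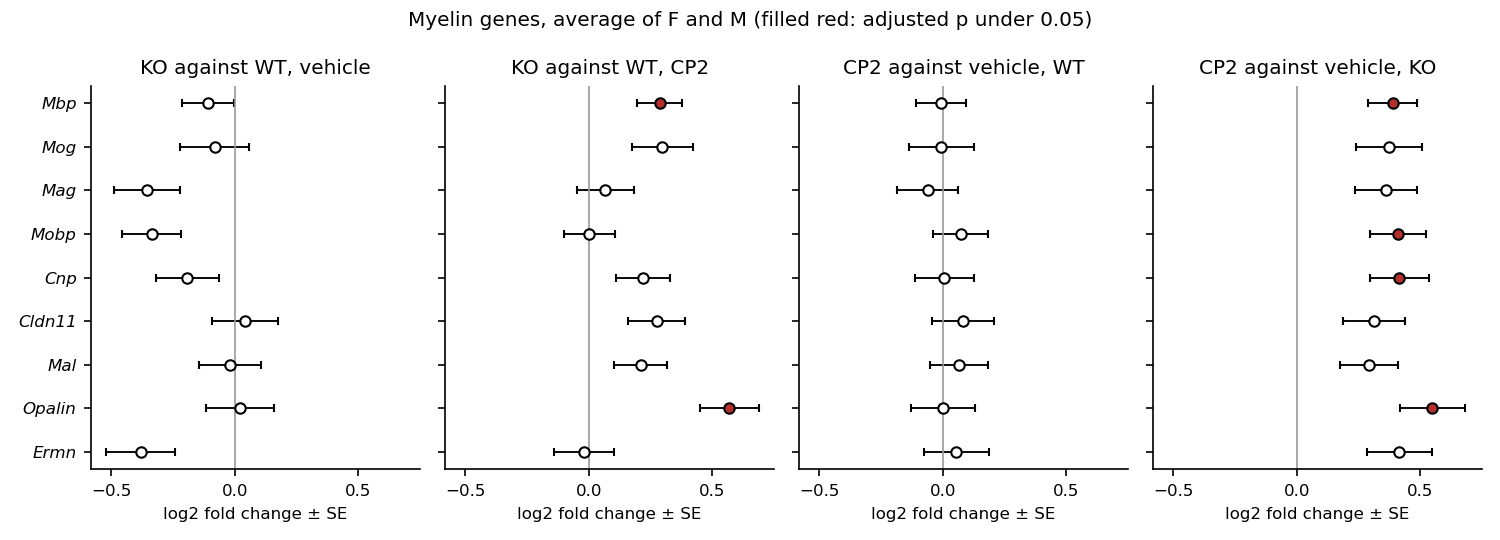
Log2 fold change with SE (horizontal axes) of the 9 genes in 4 comparisons, averaged over F and M, with filled red points at an adjusted p under 0.05 by edgeR. All 9 genes lie between 0.29 and 0.55 for CP2 in KO and between -0.06 and 0.08 for CP2 in WT, and Opalin has the largest value of KO against WT under CP2 (0.57).

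In WT mice the same treatment left the myelin genes near their vehicle level. The 9 log2 fold changes averaged over F and M were between -0.06 and 0.08 (median 0.01). By edgeR 0 of 9 were called in F, M or the average, as were 0% of all genes. None (0 of 9) had an unadjusted p under 0.05, and DESeq2 and limma-voom called 0. Opalin had 32.3, 46.7, 31.8, 49.3 and 31.0 CPM in WT CP2 F and 45.5, 34.1, 32.2, 42.6 and 40.3 CPM in WT vehicle F. In M it had 38.1, 38.6, 30.5, 47.8 and 40.7 CPM with CP2 and 32.4, 42.7 and 39.9 CPM with vehicle. The groups overlapped, and the 95% interval of the Opalin change ran from -0.25 to 0.26, that of Mbp from -0.20 to 0.19.

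Whether the response differed between KO and WT was tested as the interaction of genotype and CP2. All 9 differences were positive, from 0.23 for Mal and Cldn11 to 0.55 for Opalin, with a median of 0.38, but edgeR called 0 of 9, DESeq2 0 and limma-voom 0. By edgeR 0.715% of all genes were called. At an unadjusted p under 0.05 were 5 of 9 myelin genes and 3736 of all 25601 genes. Opalin had 0.55 (SE 0.184, adjusted p = 0.143), Mbp 0.39 (SE 0.141, adjusted p = 0.167) and Cnp 0.41 (SE 0.169, adjusted p = 0.243). A difference between the genotypes in the response of these genes was thus not shown by this test.

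Of the 9 genes, Opalin differed most between KO and WT mice under CP2. Averaged over F and M, Opalin was higher in KO by 0.57 on the log2 scale (1.48-fold, SE 0.120, adjusted p = 0.00178 by edgeR), and Mbp by 0.29 (1.22-fold, SE 0.092, adjusted p = 0.0378). Thus 2 of 9 genes were called higher, where 5.54% of all genes were. Mobp (0.00), Ermn (-0.02) and Mag (0.07) were near 0, and Mog (0.30, adjusted p = 0.115), Cldn11 (0.27), Cnp (0.22) and Mal (0.21) lay between and did not pass. The 9 genes spread from -0.02 to 0.57 here, and from 0.29 to 0.55 for CP2 in KO.

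In F, the lowest KO CP2 sample for Opalin (50.1 CPM) was just above the highest WT CP2 sample (49.3 CPM), so the 5 and 5 samples did not overlap. No other of the 9 genes was free of overlap there, and 3.02% of all genes were. The log2 fold change in F was 0.70 (SE 0.17, adjusted p = 0.0275), and Opalin was the only 1 of 9 called, where 0.715% of all genes were called higher. In M, Opalin had 0.44 (SE 0.17, adjusted p = 0.0992), and Mbp was the only 1 of 9 called, with 0.40 (SE 0.13, adjusted p = 0.0475), where 4.75% of all genes were called higher. WT CP2 M had 4462, 4087, 3520, 4482 and 3352 CPM of Mbp, which overlapped with KO CP2 M through L291 and L298. The difference of the genotype effect between F and M was called for 0 of 9 genes by edgeR, DESeq2 and limma-voom, with 0 at an unadjusted p under 0.05, where 0.820% of all genes were called.

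The Opalin call held in all 12 alternative settings, with log2 fold changes of 0.46 to 0.64 and adjusted p of 1.21e-05 to 0.0106, and in all 20 fits that left out 1 sample (0.50 to 0.64). The Mbp call held in 8 of 12 settings and 9 of 20 such fits. It was lost without L216, L233, L228, L257, L311, L266, L292, L299, L262, L263 or L289 in turn, with log2 fold changes of 0.25 to 0.29. Without L291, 4 of 9 genes were called higher: Opalin (0.64), Mog (0.37), Cldn11 (0.34) and Mbp (0.34). Over the 20 fits, 2272 to 3038 of all genes were called. In F alone, the Opalin call was lost without L227 (adjusted p = 0.063), L233 (0.061), L228 (0.075), L257 (0.096) or L311 (0.06), with fold changes of 0.63 to 0.66. In M alone, the Mbp call was lost without L266, L292, L299, L262, L263 or L289 in turn, with fold changes of 0.31 to 0.41, and without L291 3 genes were called (Mbp, Cldn11 and Opalin).

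With vehicle, no myelin gene was called between KO and WT, although some lay lower in KO. Ermn (-0.38, SE 0.14, adjusted p = 0.099), Mag (-0.35, SE 0.133, adjusted p = 0.107) and Mobp (-0.34, SE 0.12, adjusted p = 0.0857) had the lowest values in KO, averaged over F and M. Cnp (-0.19) and Mbp (-0.11) followed, and Mog (-0.08), Mal (-0.02), Opalin (0.02) and Cldn11 (0.04) were near 0. By edgeR 0 of 9 genes were called, where 6.67% of all genes were. An unadjusted p under 0.05 was reached by 3 of 9, and by 5536 of all 25601 genes. DESeq2 called those 3, Ermn, Mag and Mobp, lower, and limma-voom called 0. Of all 25601 genes they called 2319 and 3054, in either direction. In F and in M alone edgeR called 0 of 9, with 1 at an unadjusted p under 0.05 in each (DESeq2 0, limma-voom 0), where 4.96% of all genes were called in F and 0.516% in M. The difference between F and M was called for 0 of 9 (0 at an unadjusted p under 0.05, and 0 by DESeq2 or limma-voom), where 0.102% of all genes were.

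Mobp had 1434, 1574, 1137, 1355 and 1317 CPM in KO vehicle F and 2126, 1687, 1414, 1901 and 1813 CPM in WT vehicle F. In M, KO vehicle samples had 1212, 1408 and 1080 CPM and WT vehicle samples 1483, 1528 and 1484 CPM. All 3 KO samples of M were below all 3 WT samples, while in F 1 WT sample lay within the KO range. Mag had 240, 220 and 169 CPM in KO vehicle M and 280 to 305 CPM in the 3 samples of WT vehicle M, also apart. Cnp had 543, 579 and 410 CPM and 603 to 654 CPM in the same groups, also apart. Ermn had 78.8, 77.1 and 64.4 CPM and 92.3, 101 and 101 CPM there, again without overlap. These were 4 of the 9 genes, where 20.9% of all genes were free of overlap between the 3 and 3 samples. In F, Ermn ran from 47.3 to 89.2 CPM in KO and from 73.5 to 134 CPM in WT, with overlap. The vehicle comparison and that of CP2 in KO share the KO vehicle samples, so a low value of these samples enters both.

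Opalin and Ermn are a pair picked after their values were seen and so given with no test. The ratio of Opalin to Ermn CPM had a median of 0.617 in KO CP2 F, 0.540 in KO vehicle F, 0.549 in KO CP2 M and 0.506 in KO vehicle M. In WT the medians were 0.441 in CP2 F, 0.464 in vehicle F, 0.359 in CP2 M and 0.393 in vehicle M. The 4 KO medians were thus above the 4 WT medians. The sample ranges of KO and WT overlapped in vehicle F, where WT reached 0.473 and KO began at 0.435, and in CP2 M, and did not overlap in CP2 F, where WT reached 0.525 and KO began at 0.554, or in vehicle M.

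Between F and M samples no difference passed the test. Averaged over the 4 conditions edgeR called 0 of 9 between F and M, where 10.3% of all genes were called. At an unadjusted p under 0.05 there was 1 of 9, and 6256 of all 25601 genes. DESeq2 and limma-voom called 0 of 9. The values farthest from 0 were 0.14 for Mbp (adjusted p = 0.201), 0.14 for Mobp (adjusted p = 0.265) and -0.14 for Mag (adjusted p = 0.335).

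Within a group the 9 genes varied together from mouse to mouse. With each group's mean removed, the 36 pairs of genes had Pearson correlations of log2 CPM over the 36 samples from 0.63 to 0.97, with a median of 0.82, given as a description because all genes share the library and its tissue composition. Mog and Cnp were closest (0.97), followed by Mag with Cnp (0.94) and with Mog (0.93). Mobp went most closely with Mal (0.91) and less with Opalin (0.63) and Mag (0.66), and Ermn reached at most 0.78. The correlation of each gene with the mean of the other 8 was highest for Mog (0.97) and Cnp (0.94), and lowest for Opalin (0.84), Mobp (0.80) and Ermn (0.78).

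**Figure D3:**
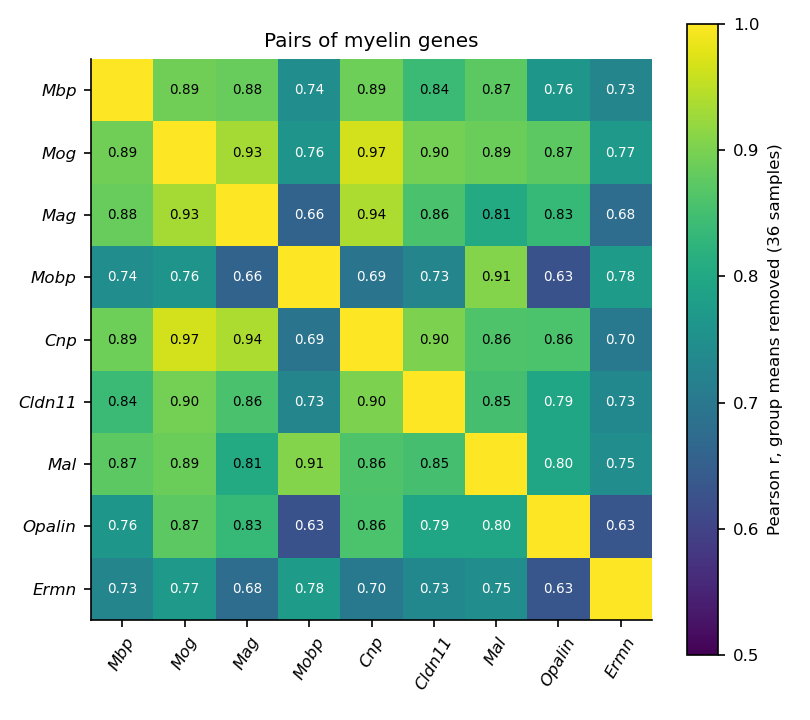
Pearson correlation of log2 CPM for each pair of the 9 genes over 36 samples with group means removed (colour scale from 0.5 to 1). Mog, Cnp and Mag form the closest block (0.93 to 0.97), and Opalin with Mobp and with Ermn are lowest (0.63).

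Of all tested genes outside the 9, the 10 whose log2 CPM went most closely with their mean included Sept4 (0.92), Tspan2 (0.92), Slc44a1 (0.89), Gal3st1 (0.89), Tmem88b (0.89), Desi1 (0.87), Adamts4 (0.86), Cryab (0.85) and Prr18 (0.85), again over 36 samples with group means removed. Gal3st1 makes sulfatide, a lipid of myelin. Of these 10 genes, Sept4, Desi1, Adamts4 and Prr18 are on none of the marker lists used here. The lowest values were -0.70 for Gm13986, -0.68 for AC165360.1 and -0.67 for Ip6k1, the first pair with means of 0.152 and 0.151 CPM.

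The rest of the oligodendrocyte programme was followed through lists of marker genes. A list of 30 other genes of myelin and mature oligodendrocytes, with Plekhb1, Trf and Tspan2 among the most abundant, was read in the same fits. After CP2 in KO, 11 of 30 were called higher (2.08% of all genes were), 0 lower, all 30 were positive, and the median was 0.36. Among them Plekhb1 rose by 0.43 (adjusted p = 0.00448), Efhd1 by 0.36 (adjusted p = 0.00951), the lysophosphatidic acid receptor Lpar1 by 0.43 (adjusted p = 0.0121) and the deacetylase Sirt2 by 0.26 (adjusted p = 0.0173), by edgeR. In WT the list had 0 of 30 called after CP2 (median -0.03, 0 at an unadjusted p under 0.05). For the interaction 1 of 30 was called, Plekhb1, with 0.55 (adjusted p = 0.0217 by edgeR), where 0.715% of all genes were called. In M alone 6 of the 30 were called higher in KO, where 2.36% of all genes were. Among them Plekhb1 (0.61) and Sirt2 (0.39) had the smallest adjusted p. In F alone 0 of the 30 were called. At an unadjusted p under 0.05, 8 of the 30 passed in F, as did 2827 of all 25601 genes.

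The calls of the 30 genes moved with single samples and settings. Without L322 there were 2 called after CP2 in KO, without L266 4, without L281, L299 or L319 5, without L216, L233, L234 or L292 6, and without L279 7. Without L291 18 were called. With the percentage of reads outside genes as a covariate there were 0. DESeq2 called 17 and limma-voom 6, and of all 25601 genes they called 1555 and 1015. In M alone, 6 became 0 without L322, 1 without L266, L299 or L319, 3 without L292, 4 without L310 and 10 without L291.

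With vehicle, genes of the list of 30 were lower in KO: 11 of 30 were called lower and 0 higher, where 3.80% of all genes were called lower, with a median of -0.26. Qdpr fell by 0.57 on the log2 scale (adjusted p = 0.00333 by edgeR), Ndrg1 fell by 0.44 (adjusted p = 0.000736) and Plekhb1 fell by 0.41 (adjusted p = 0.00319). Whether the 30 and the 9 differ was not tested. This comparison and that of CP2 in KO share the KO vehicle samples, so their counts are not independent. Without L322 the count was 4. With the percentage of reads outside genes as a covariate it was 2, and with the score of thalamic markers 2. Under CP2, 5.54% of all genes were called higher in KO. Of the 30, 6 were higher (with Sirt2 0.31, Tspan2 0.42, Aspa 0.34 and Pllp 0.41 the 4 with the smallest adjusted p) and 0 lower, with a median of 0.14. Without L299 or L263 that count was 3 and without L291 9.

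**Figure D4:**
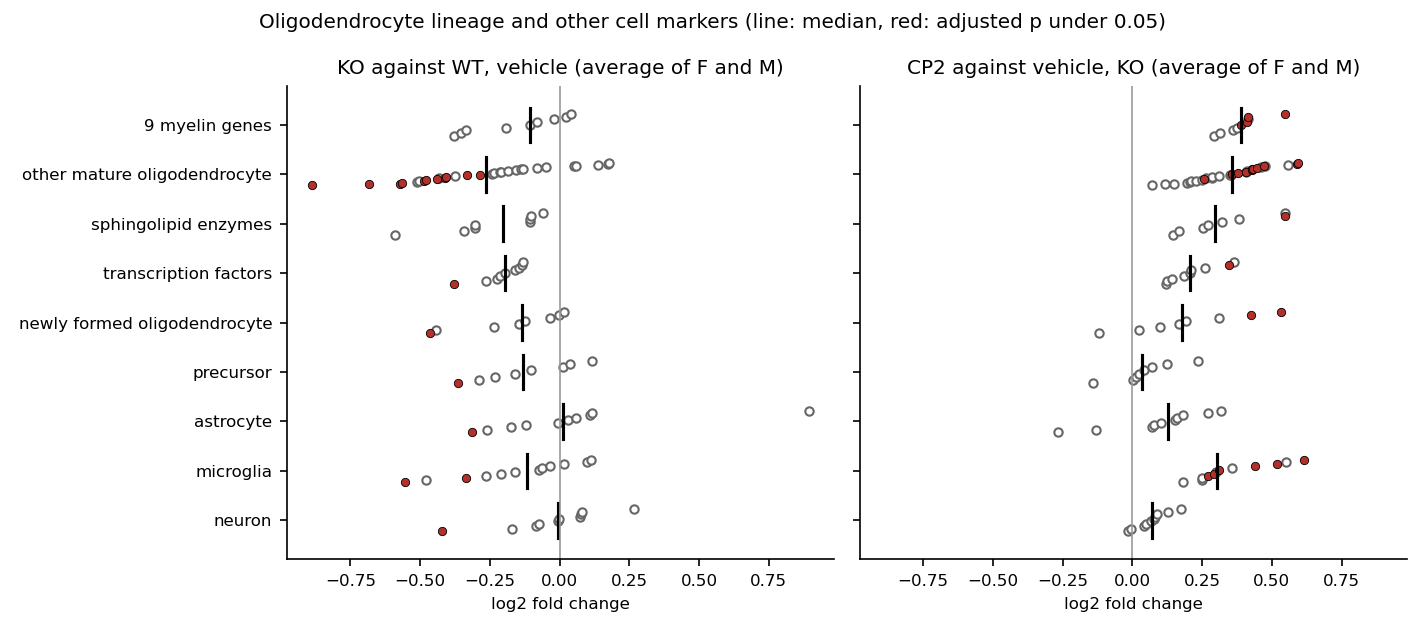
Log2 fold change (horizontal axes) of single genes in the 9 myelin genes and 8 marker lists, for KO against WT with vehicle (left) and CP2 against vehicle in KO (right), averaged over F and M, with red for an adjusted p under 0.05 by edgeR and a line at each median. The 9 myelin genes and the 30 other mature oligodendrocyte genes have medians of -0.11 and -0.26 on the left and of 0.39 and 0.36 on the right.

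Genes of lineage control and of earlier stages were counted in the same way. Of all genes, 2.08% were called higher after CP2 in KO, and 3.80% lower in KO with vehicle. Both comparisons use the KO vehicle samples, so a low value of these samples enters both. Of 9 lineage transcription factors, Olig1 alone was lower in KO with vehicle (fell by 0.38, adjusted p = 0.00327) and alone rose after CP2 in KO (0.34, adjusted p = 0.00854), while all 9 were negative with vehicle (median -0.19) and positive after CP2 in KO (median 0.20). Of 8 enzymes of myelin sphingolipids, Gltp, which carries glycolipids, rose after CP2 in KO (0.55, adjusted p = 0.00518), and the median was 0.30. Of 8 markers of committed and newly formed oligodendrocytes, Enpp6 (0.53, adjusted p = 0.0102) and Bcas1 (0.42, adjusted p = 0.0365) rose after CP2 in KO, and Bcas1 was lower in KO with vehicle (fell by 0.46, adjusted p = 0.0222). Of 8 precursor markers, which include the receptor Pdgfra, 0 were called after CP2 in KO by edgeR (median 0.03). At an unadjusted p under 0.05 were 2 of these 8, as were 4641 of all 25601 genes. Matn4 was lower in KO with vehicle (fell by 0.37) and with CP2 (fell by 0.45). Lhfpl3 was higher in KO with CP2 (0.23, adjusted p = 0.0305 by edgeR). Between KO and WT with CP2, 1419 of all 25601 genes were called higher and 1553 lower.

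The mean log2 CPM of the 9 genes followed that of the 30 other genes from sample to sample, with a within-group Pearson correlation of 0.94 over 36 samples (0.91 after leaving out the 2 samples farthest from the median). For the sphingolipid enzymes it was 0.92, the transcription factors 0.85, the newly formed markers 0.72 and the precursor markers 0.28. For the share of reads outside genes it was -0.33. With the mean of the 30 other genes as a covariate, an alternative chosen after seeing the data, 0 of 9 genes were called after CP2 in KO. Their values ran from -0.11 for Cldn11 to 0.16 for Opalin, and 1 of all 25601 genes was called. Because the 30 genes moved with the 9 and with these groups, the 0 calls are no result about the 9. The other calls of this fit carry the same limit, since they are values relative to the 30 genes. Under CP2, Opalin (0.46, adjusted p = 8.73e-05 by edgeR) and Mbp (0.18, adjusted p = 0.0109) were called higher in KO than in WT. There 1401 of all genes were called higher. With vehicle, Cldn11 (0.38, adjusted p = 0.00487 by edgeR) and Mog (0.28, adjusted p = 0.0448) were higher in KO relative to the 30 genes, where 127 of all genes were called higher. Without the covariate Cldn11 had 0.04 and Mog -0.08 in that comparison, and the 30 genes had a median of -0.26. Between F and M, Mbp (0.20), Mobp (0.20) and Mog (0.13) were called higher in F, where 1321 of all genes were.

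**Figure D5:**
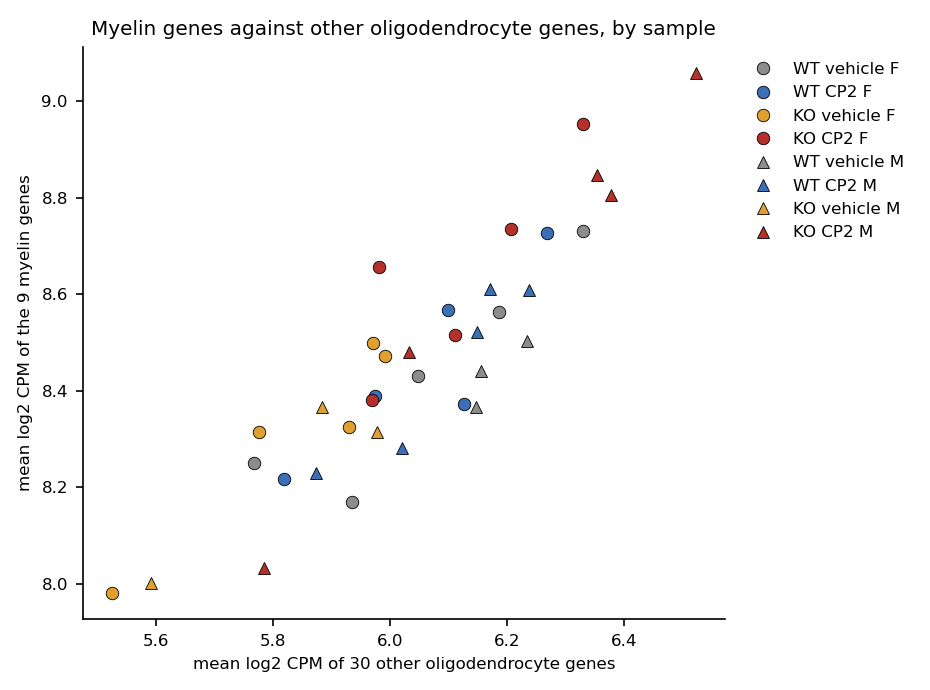
Mean log2 CPM of the 9 myelin genes (vertical) against that of the 30 other mature oligodendrocyte genes (horizontal) in each of the 36 samples, coloured by genotype and treatment, with circles for F and triangles for M. The points lie along a rising band (within-group correlation 0.94).

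Markers of other cells moved in the same comparisons. After CP2 in KO, 6 of 12 microglia markers (median 0.30, among them Gpr34 0.52) were called higher, where 2.08% of all genes were. The summed level of the list was 464 to 661 CPM in KO CP2 F and 367 to 523 in KO vehicle F. It was 494 to 669 in KO CP2 M and 410 to 541 in KO vehicle M, with none of the 12 at 0 in any group. Of 10 neuron markers (median 0.07) and 10 astrocyte markers (median 0.13) edgeR called 0, and of 9 endothelial markers 1, Itm2a. At an unadjusted p under 0.05, 2 neuron and 4 astrocyte markers passed, as did 4641 of all 25601 genes. With vehicle, edgeR called Fcrls (-0.56) and Tmem119 (-0.34) of the 12 microglia markers lower in KO. It also called the astrocyte marker S1pr1 (-0.31) and the neuron marker Nefl (-0.42) lower, where 3.80% of all genes were. No marker of these lists was called higher there. Under CP2, KO exceeded WT in 6 of 12 microglia markers, where 5.54% of all genes were called higher. In M alone 8 of the 12 were called higher (4.75% of all genes were), and in F alone 0 (median 0.01). Of 10 astrocyte markers only Gfap, a filament raised in reactive glia, was called (1.28, adjusted p = 0.00421 by edgeR). In that list 6 values were positive and 4 negative, with a median of 0.04. Of 10 neuron markers under CP2, Stmn2 was called higher in KO (0.19, adjusted p = 0.00588) and Nefl lower (-0.23, adjusted p = 0.0179), by edgeR. There 1419 of all 25601 genes were called higher and 1553 lower. Regional markers also moved: with vehicle, all 7 thalamic neuron markers were negative in KO (median -0.52, Ramp3 called, -0.71), and of 8 hippocampal markers 4 were positive and 4 negative (median -0.02), with Wfs1 called higher (0.56). In vehicle F alone, Spink8 (-1.39) and Iyd (-1.74) of that list were called lower in KO. The summed thalamic markers were at 171 to 222 CPM in KO vehicle M and 341 to 406 CPM in WT vehicle M. With the thalamic score as a covariate the 9 genes' median with vehicle was -0.01 in place of -0.11. The part of cell composition or dissected region in these results was not tested further.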

How the data were processed

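RNA was measured in brain tissue of 36 mice. The deposited values are raw counts per Ensembl gene, made by the authors with STAR and HTSeq on GRCm39, per the submitters' processing notes. Libraries were polyA-enriched Illumina TruSeq libraries, per the labels' protocols. Strandedness and annotation release are not given in the sources used here, so reads of overlapping and antisense genes cannot be told apart. The 5 summary rows of the table were left out of the gene counts. Symbols from a name table matched 52073 of 56980 identifiers (91.4%). No coordinates of the counted genes are given, and exon lengths and promoters come from GRCm38 tables.

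Counts were tested with edgeR 4.0.16 (TMM, filterByExpr on the 8 groups, robust glmQLFit and glmQLFTest, R 4.3.3) in 1 fit over all 36 samples, with a coefficient per group. Benjamini-Hochberg adjustment covered all 25601 genes within each of 17 contrasts, with a threshold of 0.05. SE is the log2 fold change divided by the root of F. Levels are CPM on TMM library sizes, and log2 CPM used a prior count of 2. The functions were tested on simulated data. Alternatives were DESeq2 1.42.0, limma-voom (limma 3.58.1), DESeq2-type size factors (RLE), no filter, the groups of a contrast alone, covariates, and leaving out each sample. The myelin genes, the marker lists and the tests were chosen with earlier results of these data known. Named genes are the 9 myelin genes, Ndufs4, Xist for the check of labels, and from each list up to 4 of the most abundant and up to 4 called with the smallest adjusted p. The additional names given beside short counts, and the pair of Opalin and Ermn, were chosen after their values were seen. Genes with the most similar pattern were the 10 highest and 3 lowest within-group correlations with the mean of the 9. Some genes that meet these rules are not reported here. No protein sequences were used here.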

Additional observations from a re-analysis of the deposited data

Results flagged for a closer look

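In groups of 5 samples, the gap of the highest or lowest sample to the nearest other was compared with the range of the group for each of the 9 genes. Of 54 such group tests, chance flags about 1 in 20, and 3 samples stood apart. Mobp was at 2517 CPM in KO CP2 F replicate L233, where the other 4 samples had 1433 to 1734 CPM. Ermn was at 61.5 CPM in WT CP2 F replicate L228, where the other 4 had 101 to 112 CPM. Ermn was at 134 CPM in WT vehicle F replicate L252, where the other 4 had 73.5 to 90.1 CPM. Without L233, the log2 fold change of Mobp after CP2 in KO was 0.32 (adjusted p = 0.054 by edgeR).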

How the results depend on the processing

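Counts below are of the 9 myelin genes unless named as the list of 30 other genes, and contrasts averaged over F and M are meant where no letter is given. No called gene changed sign: over 9 called values, 63 of 108 settings kept the call and 45 lost it, and leaving out 1 sample kept 86 of 140. For CP2 in KO (main count 4) the count was 0 with limma-voom, with the groups of the contrast alone, and with the covariates share outside genes, hippocampal score, title number and score of the 30 genes, 2 with no filter, and 0 to 8 when leaving out 1 sample. In KO M (1) it was 3 with DESeq2, 2 with the hippocampal score, 0 with the groups alone, share outside genes, title number or score of the 30, and 0 to 2 leaving out 1 sample, and in KO F (0) it was 1 with DESeq2. For KO against WT under CP2 (2) it was 1 with limma-voom, no filter, share outside genes or title number, 4 without L291 and L266, and 1 to 4 leaving out 1 sample. In F (1) it was 0 with limma-voom, no filter, the groups alone, hippocampal score or title number, and 0 to 1 leaving out 1 sample. In M (1) it was 2 with DESeq2, thalamic score or L291 and L266 left out, 0 with no filter, the groups alone, share outside genes or striatal score, and 0 to 3 leaving out 1 sample. With vehicle (0) it was 3 with DESeq2, 1 with the groups alone or striatal score, 2 with the score of the 30, and 2 in M with the groups alone. For F against M (0) it was 3 with the score of the 30. Counts of all genes moved as well. For CP2 in KO, 1002 genes were called in the main fit. That number was 1555 with DESeq2, 1015 with limma-voom, 159 with the groups alone and 777 with the hippocampal score. It was 51 with title number, 1 with the score of the 30 and 0 with share outside genes. Leaving out 1 sample, it ran from 190 to 1534, in KO M from 225 to 1755, and with vehicle from 729 to 2169.

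For the list of 30, CP2 in KO (11) gave 17 with DESeq2, 6 with limma-voom, 5 with no filter, 2 with the groups alone, 3 with the hippocampal score, 0 with share outside genes, title number or their own score, and 2 to 18 leaving out 1 sample. KO M (6) gave 10 with DESeq2, 3 with no filter or without L291 and L266, 2 with the thalamic score, 1 with title number, 0 with share outside genes or their own score, and 0 to 10 leaving out 1 sample. With vehicle (11) the count was 2 with share outside genes or the thalamic score, 6 with their own score and 4 to 12 leaving out 1 sample. Under CP2 (6) it was 3 with no filter or share outside genes, 14 with their own score and 3 to 9 leaving out 1 sample. Their own score is made of these genes. The cause of these changes was not tested. No paired analysis was possible because no title number is shared between groups. The groups of the contrast alone give no value for F against M. With 3 to 5 mice per group, spread between mice rather than counting limits these values.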
